A study of Macaca fascicularis with 48 samples.

Results

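The 200 longest expressed transcripts of cynomolgus monkey cerebral cortex were followed across 48 bulk RNA-seq libraries. A gene ID was eligible when its count was at least 10 in all 48 libraries and it was not among the 30 IDs with the largest summed count. Of 28623 IDs, 13174 were eligible, and the 200 with the largest width were taken. Width is the length given for each ID in the deposited files of exonic counts, by which the authors divided counts to obtain RPKM. It is not taken here as the length of a gene in the genome. The libraries came from 24 Macaca fascicularis, 6 in each of 4 groups, with 2 frontal cortex punches from each animal. Every animal received 1 intravenous dose of 200 mg/kg. The agent was either anti-gD, the isotype control, or hPara.09, an antibody that activates TREM2, and the animals were examined 4 or 28 days later. The treated animals' agent label reads Para09.v2. No other allele, strain or agent is given in the labels used here, and no untreated animals are among the groups. Every animal has 1 library with a title number from 1 to 24 and 1 numbered 25 to 48, but the labels do not say which punch a set holds. The description covers these transcripts by group, by library set, and against the count total as a percent of the number that the RPKM values had been divided by. That percent is called the exonic ratio here, although the files do not say which reads make up the divisor.

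RNA-seq reads fragments of RNA, so a longer transcript yields more fragments per molecule than a shorter one at the same abundance. Counts of a gene can be compared between libraries, while levels of different genes are compared only per length. Among the longest transcripts of mammalian genomes are those for giant proteins of the cytoskeleton, the extracellular matrix and cell adhesion. TREM2 is a lipid-binding receptor of microglia, the resident immune cells of the brain. None of these roles could be placed on the IDs described here, because the files give no names and a reference table of gene symbols matched 0 of the 28623 IDs. For the same reason neither the tissue label nor any cell type was checked against marker genes, and no sequence is shown. In bulk tissue, fewer cells of a type and less RNA per cell cannot be told apart.

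Widths of the 200 members ran from 11057 to 112593 bases, with a median of 12945.5, against a median of 3021.5 for the eligible IDs and 1428 for all IDs. At the lower edge, ENSMFAG00000036598 (11067 bases) and ENSMFAG00000044616 (11057 bases) were the last inside, and ENSMFAG00000001130 (11021 bases) and ENSMFAG00000003588 (11019 bases) were the first outside. In all, 228 IDs reached the width of the last member. Of these, 28 failed the count minimum and 0 were among the 30 most abundant IDs. All 200 members passed the low-count filter of every test, as the rule itself requires a count in each library. The lowest count of any member in any library was 11, and 19 members had a library with a count under 50.

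The members were moderately to weakly expressed per length. Their median level was 5.43 CPM per kilobase, against 8.64 for the eligible IDs, and they ranged from 0.0985 to 77.9. CPM is the count scaled to a common library size, for values per kilobase by the count total alone and otherwise with TMM factors. Without division by length the order turned, with a median of 70.8 CPM for the members and 24.6 CPM for the eligible IDs. The members were 1.52% of the eligible IDs and held 6.12% of their summed width but 3.30% of their counts. Of all counts in the series they held 2.52%. Counts were concentrated in few of them, with 25.2% of the members' counts in the top 10 members and 50% in 28.

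The widest member was ENSMFAG00000001543 (112593 bases). It stood at 18.87, 26.31 and 31.51 CPM (lowest, median and highest of 6 animals) with anti-gD at day 4 and at 19.57, 25.77 and 38.47 CPM with hPara.09 at day 4. At day 28 it stood at 18.56, 23.95 and 34.07 CPM with anti-gD and at 24.52, 32.96 and 53.7 CPM with hPara.09. The hPara.09 day 28 group reached highest, and all 4 groups overlapped. The next in width was ENSMFAG00000033704 (41264 bases), with a much higher level that ran from 553 to 761.2 CPM over the 24 animals. The third, ENSMFAG00000043753 (32913 bases), ran from 93.05 to 143.3 CPM. The highest level per length was that of ENSMFAG00000003466 (11467 bases, 77.9 CPM per kilobase), which ran from 710.6 to 1054 CPM over the animals. ENSMFAG00000044363 and ENSMFAG00000033621 followed, at 488.5 to 1050 CPM and 496.3 to 905.5 CPM.

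Depth per library was 12137146 to 32118950 counts, with a median of 20918721, and the exonic ratio was 57.1% to 65.0%. The 30 most abundant IDs held 16.7% to 39.3% of a library's counts. The library numbered 29 (anti-gD day 4, animal 5) stood apart, with the lowest depth, the highest share in the 30 most abundant IDs and the lowest member share, 1.95%. The library numbered 40 (anti-gD day 28, animal 16) had 13656102 counts, an exonic ratio of 57.7% and a member share of 2.57%. Results are also given without these libraries where they moved. The labels used here give no batch or date.

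The share of an animal's counts held by the 200 members was described for each group. It was 2.23%, 2.34% and 2.61% (lowest, median and highest of 6) with anti-gD at day 4, and 2.14%, 2.38% and 2.81% with hPara.09 at day 4. With anti-gD at day 28 it was 2.27%, 2.61% and 2.84%, and with hPara.09 at day 28 it was 2.47%, 2.68% and 2.76%. The day 28 groups lay higher in median than the day 4 groups, and every group overlapped every other. At day 4 the mean was 2.39% ± 0.173 (SD, n = 6) for anti-gD, against 2.42% ± 0.217 (SD, n = 6) for hPara.09. At day 28 these means were 2.59% ± 0.209 (SD, n = 6), and 2.66% ± 0.104 (SD, n = 6) for hPara.09. The antibody difference was 0.0320 percentage points at day 4 and 0.0695 at day 28, both smaller than the spread between animals. At day 4 its sign depended on which animals were kept, from -0.0454 without animal 8 to 0.0872 without animal 7, and it was -0.00757 without libraries 29 and 40. At day 28 it ran from 0.00364 without animal 13 to 0.118 without animal 16. No p is given for the share, as it is a score over chosen members.

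**Figure D1:**
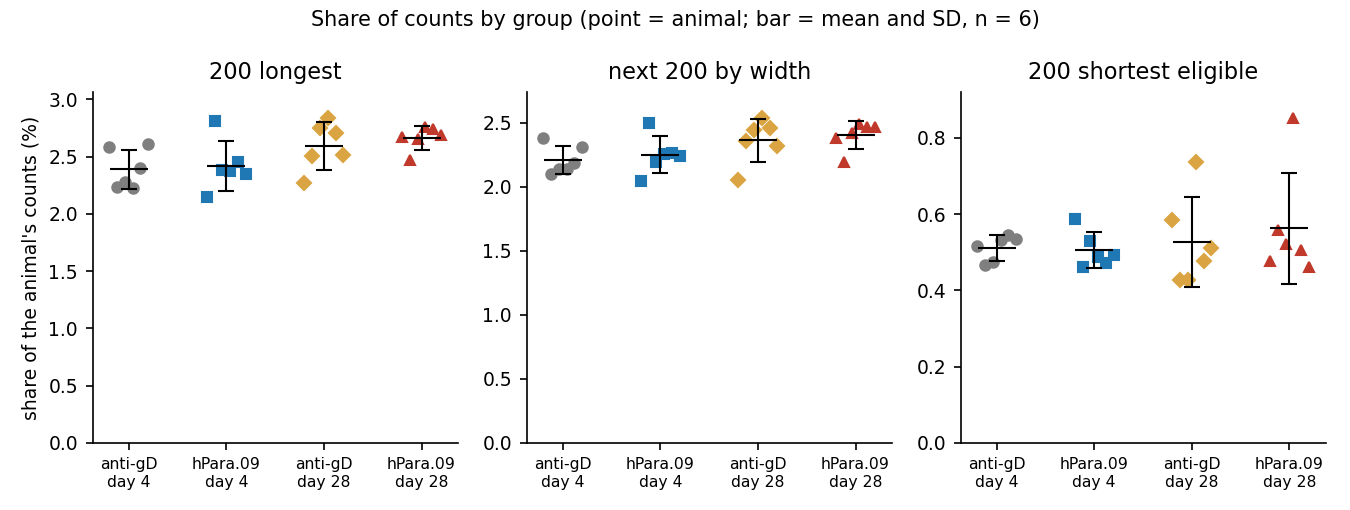
Percent of each animal's counts held by the 200 longest, the next 200 and the 200 shortest eligible IDs, by agent and day (point, animal; bar, mean and SD of 6 animals; each y axis starts at 0 with its own scale). The means of the 200 longest are 2.39% and 2.42% at day 4 and 2.59% and 2.66% at day 28, and the groups overlap in every panel.

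Whether the agonist changed the level of any member was asked on each day with edgeR's quasi-likelihood test, fitted across 16721 genes with 1 summed library per animal. At day 4, 0 of 200 members passed an adjusted p of 0.05, where 0% of all genes tested did (smallest adjusted p of a member = 1, edgeR). Without adjustment, 5 members had a p under 0.05, or 2.5% against 2.59% of all genes. Of these 1 was higher and 4 were lower with hPara.09, where 1.33% of all genes were higher and 1.26% lower. DESeq2 and limma voom also called 0 members. The median log2 fold change was -0.01 for the members and -0.01 for all genes, and 81 of 200 estimates were positive (40.5% against 47%). For 175 members the 95% interval excluded changes beyond 1.5-fold in either direction, or 87.5% against 68.3% of all genes. Among the eligible IDs, which met the same count minimum as the members, the percentage was 83.3%. ENSMFAG00000002351 (13346 bases) had the smallest p. Its level was 15.29, 20.42 and 27.03 CPM (lowest, median, highest) with anti-gD and 24.7, 29.54 and 41.89 CPM with hPara.09, and the groups overlapped. The mean of the controls was exceeded in 6 of 6 hPara.09 animals, with a log2 fold change of 0.56 (standard error 0.214, edgeR adjusted p = 1). At day 28 the same transcript stood at 15.5 to 31.32 CPM with anti-gD and 13.18 to 36.14 CPM with hPara.09.

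At day 28 the result was again 0 of 200 members, against 0% of all genes (smallest adjusted p of a member = 0.947, edgeR). Without adjustment 15 members had a p under 0.05, or 7.5% against 4.84% of all genes. Of these 13 were higher and 2 lower, where 3.16% of all genes were higher and 1.67% lower. DESeq2 and limma voom called 0 members. The median log2 fold change was 0.06, against -0.00 for all genes, with 131 positive estimates (65.5% against 48.9%). For 162 members the 95% interval excluded changes beyond 1.5-fold in either direction, or 81% against 66.2% of all genes. Among the eligible IDs the percentage was 80.9%, close to that of the members. Groups did not overlap for 2 members, both higher with hPara.09, or 1% of the members against 0.102% of all genes. ENSMFAG00000002730 (15728 bases) had the smallest p, and its value rested on 1 library. It stood at 1.458, 1.664 and 1.826 CPM with anti-gD and at 1.348, 2.497 and 23.15 CPM with hPara.09. The highest value was that of animal 21, whose library numbered above 24 held 45.97 CPM, while the other 5 hPara.09 animals ended at 3.33 CPM. The log2 fold change was 1.80 (standard error 0.504, edgeR adjusted p = 0.947), and without animal 21 it was 0.44.

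The change of the antibody difference between the days was tested as an interaction, in which 0 of 200 members passed, as did 0% of all genes (smallest adjusted p of a member = 1, edgeR). Without adjustment 13 members had a p under 0.05, or 6.5% against 4.28% of all genes. The difference was more positive at day 28 in 11 of them and more negative in 2, where the shares of all genes were 2.51% and 1.78%. DESeq2 and limma voom called 0 members. The median was 0.08 on the log2 scale for the members and 0.00 for all genes, with 141 positive estimates (70.5% against 51%). The smallest p was that of ENSMFAG00000039001 (13543 bases). Its level was 46.12 to 61.81 CPM with anti-gD and 38.64 to 59.05 CPM with hPara.09 at day 4. At day 28 it was 43.07 to 65 CPM with anti-gD and 54.26 to 80.07 CPM with hPara.09. The difference of differences was 0.47 on the log2 scale (standard error 0.166, edgeR adjusted p = 1), and on both days the groups overlapped.

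Day 28 was next compared with day 4, within each antibody and over both. The share of counts was higher at day 28 by 0.207 percentage points with anti-gD and by 0.244 with hPara.09. Over both antibodies it was 2.40% ± 0.188 (SD, n = 12) at day 4 and 2.63% ± 0.162 (SD, n = 12) at day 28, 9.39% higher in relative terms. Of the day 28 animals, 11 of 12 lay above the day 4 mean, and the ranges overlapped. The same direction was found in each library set, with 2.54% and 2.82% in the set numbered 1 to 24 and 2.23% and 2.43% in the set numbered 25 to 48, day 4 first. The next 200 IDs by width (9224 to 11021 bases) were 6.88% higher at day 28, with 10 of 12 day 28 animals above the day 4 mean. The 200 shortest eligible IDs (59 to 288 bases) were 7.23% higher in mean, with 6 of 12 above it. Their median share was nearly equal on the days, at 0.505% at day 4 and 0.509% at day 28. Singly, the shortest IDs had a median log2 fold change of -0.06, with 41% positive estimates. The exonic ratio also differed in mean, at 62.2% at day 4 and 59.8% at day 28, and its part in the share was not tested. When the members' counts were divided by the RPKM divisor in place of the count total, the day difference was 5.28% in relative terms.

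Of the single members, 16 rose from day 4 to day 28 over both antibodies and 0 fell in edgeR's test. Among all 16721 genes 4.6% were called. Higher calls were 8% of the members and 2.46% of all genes, and lower calls were 0% and 2.14%. Changes were small, from 0.14 to 0.98 on the log2 scale with a median of 0.29, and 3 exceeded 1.5-fold. The median log2 fold change of all 200 members was 0.14 and that of all genes 0.01, with 167 positive estimates (83.5% against 51.4%). Without adjustment 74 members had a p under 0.05, or 37% against 23.6% of all genes. The next 200 by width likewise had 16 rises and 0 falls. The set numbered 1 to 24 alone gave 35 called members with a median of 0.15, where 9.26% of all genes were called. The set numbered 25 to 48 alone gave 0 with a median of 0.10, and 0% of all genes. With the exonic ratio as a covariate the count was 0 and the median 0.06, where 0.0179% of all genes were called. Leaving out single animals moved the count past 1.5 times, and the share called among all genes lay between 1.71% and 8.17%. It was 7 without animal 2, 10, 11, 16 or 21, 8 without animal 4 or 12, 9 without animal 18 or 20, 10 without animal 3 or 23, and 31 without animal 6.

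The largest rise of a called member was that of ENSMFAG00000041387 (11275 bases). It stood at 5.529, 6.82 and 10.43 CPM with anti-gD at day 4 and at 6.266, 18.02 and 29.03 CPM with anti-gD at day 28. With hPara.09 it stood at 5.478, 6.946 and 11.56 CPM at day 4 and at 4.619, 13.24 and 15.29 CPM at day 28. The anti-gD day 28 animals reached highest, and in 10 of 12 day 28 animals the level lay above the day 4 mean. Over both antibodies the log2 fold change was 0.98 (standard error 0.214, edgeR adjusted p = 0.0176). ENSMFAG00000032413 (14262 bases) followed, at 2.844, 3.434 and 4.795 CPM over the 12 day 4 animals and 3.204, 6.309 and 10.56 CPM over the 12 day 28 animals. Of the latter, 10 lay above all day 4 animals, and the log2 fold change was 0.87 (standard error 0.140, edgeR adjusted p = 0.00417). Neither passed in the set numbered 25 to 48 alone or with the exonic ratio as a covariate, with adjusted p up to 0.190 and 0.110 over all alternatives. Over the same alternatives their log2 fold changes were 0.85 to 1.06 and 0.78 to 0.97.

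Within the anti-gD animals 0 of 200 members passed, as did 0% of all genes (smallest adjusted p of a member = 0.228, edgeR). Without adjustment 20 members had a p under 0.05, or 10% against 10% of all genes. Of these 19 were higher and 1 was lower at day 28, where 5.27% of all genes were higher and 4.75% lower. The member with the smallest p was again ENSMFAG00000041387, with a log2 fold change of 1.34 (standard error 0.304). It was called by DESeq2 (adjusted p = 0.0107), and by edgeR without animal 17 (adjusted p = 0.0397), with adjusted p from 0.0107 to 0.552 over the alternatives. The median log2 fold change was 0.08 for the members and -0.00 for all genes, with 152 positive estimates (76% against 49.8%). Limma voom called 0 members.

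Within the hPara.09 animals 1 member rose and 0 fell, where 0.263% of all genes passed, 0.179% higher and 0.0837% lower. The member was ENSMFAG00000032413, at 2.908, 3.675 and 4.795 CPM at day 4 and 5.717, 8.464 and 10.56 CPM at day 28. The groups did not overlap, and the log2 fold change was 1.13 (standard error 0.198, edgeR adjusted p = 0.0269). In anti-gD animals the same transcript stood at 2.844, 3.284 and 4.389 CPM at day 4 and 3.204, 5.475 and 7.847 CPM at day 28 (log2 fold change 0.61, adjusted p = 0.306). The difference between these changes was 0.52 on the log2 scale and did not pass (edgeR adjusted p = 1). Without adjustment 74 members had a p under 0.05, or 37% against 18.2% of all genes. Of these 71 were higher and 3 lower, where 10.2% of all genes were higher and 8.06% lower. Groups did not overlap for 8 members, all higher at day 28, or 4% of the members against 1.12% of all genes. The median log2 fold change was 0.18 against 0.01 for all genes, with 157 positive estimates (78.5% against 51.1%). The count of called members was 19 with the set numbered 1 to 24 alone, 0 with the set numbered 25 to 48, 0 with the exonic ratio as a covariate, and 3 without libraries 29 and 40. In the same order 1.93%, 0%, 0% and 0.431% of all genes were called, and 0% to 1.88% with single animals left out. The members' count was 0 without animal 7, 10, 11, 20, 21, 23 or 24, and it was 2, 3, 7 and 9 without animals 4, 5, 8 and 19.

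**Figure D2:**
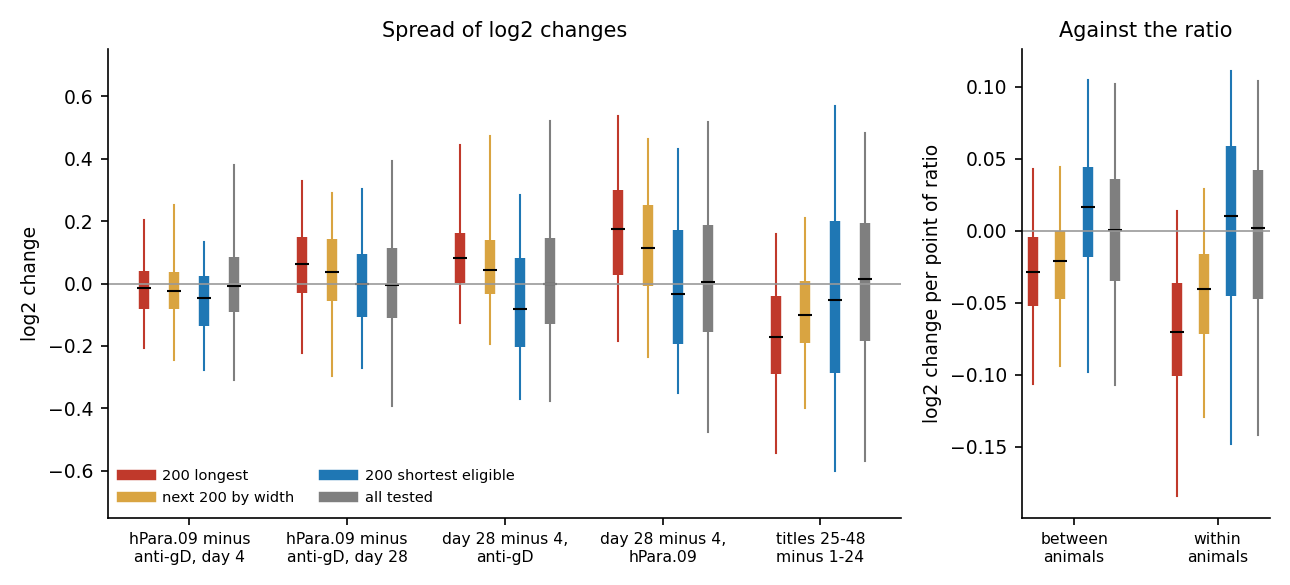
Log2 changes of the 200 longest, the next 200, the 200 shortest eligible and all tested genes in 5 comparisons (left) and per percentage point of exonic ratio (right); thick bars span the middle 50% of genes, thin lines the 5th to 95th percentile, and the black tick is the median. The 200 longest have medians of -0.01 at day 4 and 0.06 at day 28 between antibodies, 0.08 and 0.18 between days, and -0.17 between library sets.

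The series text states that the punches were taken to see how expression differs between brain samples. In the set numbered 25 to 48 the member share of counts was 1.95%, 2.28% and 2.74% (lowest, median and highest of 24), and in the set numbered 1 to 24 it was 2.19%, 2.71% and 3.06%. The ranges overlapped between animals, but within animals the higher-numbered library had the lower share in 23 of 24. The exception was animal 1 of the anti-gD day 4 group, with 0.0308 percentage points more. The mean difference was -0.350 ± 0.199 percentage points (SD, n = 24), 13.0% of the share in the lower-numbered set. It was lower in 5 of 6 animals with anti-gD at day 4 and in 6 of 6 in each other group. The most even differences were those of anti-gD at day 28, with a mean of -0.482 ± 0.0354 (SD, n = 6). The next 200 IDs by width had a mean difference of -0.253 percentage points and a lower share in 22 of 24 animals. The 200 shortest had a mean difference of 0.00330 and were lower in 14 of 24. Depth was lower in the higher-numbered library in 16 of 24 animals, and the exonic ratio was higher in 16 of 24, by a mean of 0.487 ± 1.40 points (SD, n = 24), and their part in the difference was not tested.

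**Figure D3:**
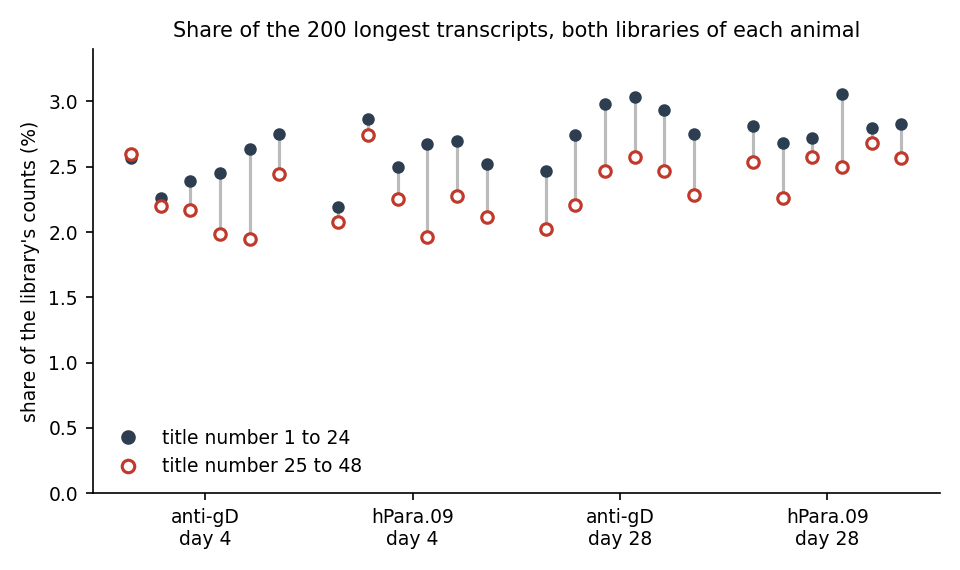
Percent of a library's counts held by the 200 longest transcripts in the library numbered 1 to 24 (filled) and the library numbered 25 to 48 (open) of each animal, with a line joining the libraries of an animal and the y axis from 0. The open point lies below the filled point in 23 of 24 animals.

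With the animal as a block, edgeR's test called 130 of 200 members between the library sets, 119 lower and 11 higher in the set numbered 25 to 48. Among all 15853 genes tested 59% were called, 30.8% higher and 28.2% lower, so lower calls were 59.5% of the members. The median log2 fold change was -0.17 for the members and 0.01 for all genes, and 39 of 200 estimates were positive (19.5% against 52.1%). Differences were small, with a median absolute log2 fold change of 0.26 among called members and 7 past 1.5-fold. In 76 members (38%) at least 20 of 24 animals had the lower value in the higher-numbered set, against 15.1% of all genes. In 5 members all 24 animals had the lower value there, or 2.5% against 0.732% of all genes. These 5 were chosen after their values were seen. They were ENSMFAG00000045395, ENSMFAG00000031053, ENSMFAG00000036405, ENSMFAG00000033978 and ENSMFAG00000039342, with log2 fold changes from -0.41 to -0.20. The next 200 by width had 93 lower and 18 higher calls. Among the members, the 100 widest had a median of -0.20 and the other 100 a median of -0.11.

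The largest fall was that of ENSMFAG00000042413 (11942 bases). It stood at 23.23, 52.09 and 92.85 CPM in the set numbered 1 to 24 and at 8.373, 26.83 and 75.31 CPM in the set numbered 25 to 48. It was lower in 21 of 24 animals, with a log2 fold change of -0.91 (standard error 0.167, edgeR adjusted p = 5.71e-05). ENSMFAG00000035883 (14097 bases) fell in 22 of 24, from a range of 6.529 to 22.4 CPM to a range of 3.225 to 14.11 CPM (log2 fold change -0.84 with a standard error of 0.128, edgeR adjusted p = 3.96e-06). The widest member, ENSMFAG00000001543, was also lower, at 17.79, 32.11 and 49.39 CPM against 8.863, 21.37 and 57.73 CPM (log2 fold change -0.48 with a standard error of 0.0916, edgeR adjusted p = 7.67e-05). A rise was measured for ENSMFAG00000031289 (11206 bases), from 34.32, 45.79 and 69.59 CPM to 41.34, 63.41 and 85.6 CPM. It was higher in 23 of 24 animals (log2 fold change 0.39 with a standard error of 0.0385, edgeR adjusted p = 2.64e-09). ENSMFAG00000041674 (12249 bases) had an equal log2 fold change of 0.39 with a wider error (standard error 0.138, edgeR adjusted p = 0.0158), and its adjusted p was 0.203 when the animal was left out of the model. The ranges of the library sets overlapped for each of these 5 members, and the tests rest on the differences within animals.

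For most members, variation was larger between the libraries of an animal than between animals of a group. Of a member's variance in log2 CPM, a median of 24.6% lay between animals, against 31.0% for all genes, and 43 of 200 members had over 50% there. Once library set means were subtracted, the medians were 40.9% and 46.8%. That part between libraries mixes punches with library preparation and sequencing, which cannot be told apart. The members also varied with each other. Over 19900 pairs of members, the median Pearson r of log2 CPM was 0.168 across 24 animals with group means removed, and 0.230 across the 24 differences between an animal's libraries. It was 0.0854 and 0.138 for the next 200 by width and 0.00605 and 0.0144 for the 200 shortest. These are descriptions, since the pairs share animals, libraries and scaling.

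The exonic ratio, which is the count total over the RPKM divisor, was then set against the members. Over 24 animals Pearson's r between the share of counts and the ratio was -0.855 and Spearman's rho was -0.881. Pearson's r was -0.826 without the 2 animals whose ratio lay farthest from the median. With group means removed r was -0.787. Each animal's pair of libraries gave the same direction, with r = -0.577 and rho = -0.573 across the 24 differences, and -0.435 without the 2 farthest. Within a set r was -0.772 for the libraries numbered 1 to 24 and -0.874 for those numbered 25 to 48. In a straight-line fit over the animals the share fell by 0.0937 percentage points per point of ratio. The share and the ratio hold the same count total, as denominator and numerator, so no p is given. With the members' counts divided by the RPKM divisor instead, r was -0.667 over animals and -0.338 within them. These measures also have a common term, as both are then divided by the RPKM divisor. The next 200 by width had r = -0.877 and rho = -0.908 over animals. The 200 shortest had r = -0.295 over animals but rho = 0.0452, and r = -0.164 without the 2 farthest. Across the within-animal differences their r was 0.00947. Depth itself had an r of -0.0523 with the share over animals, and the share of the 30 most abundant IDs had -0.545.

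**Figure D4:**
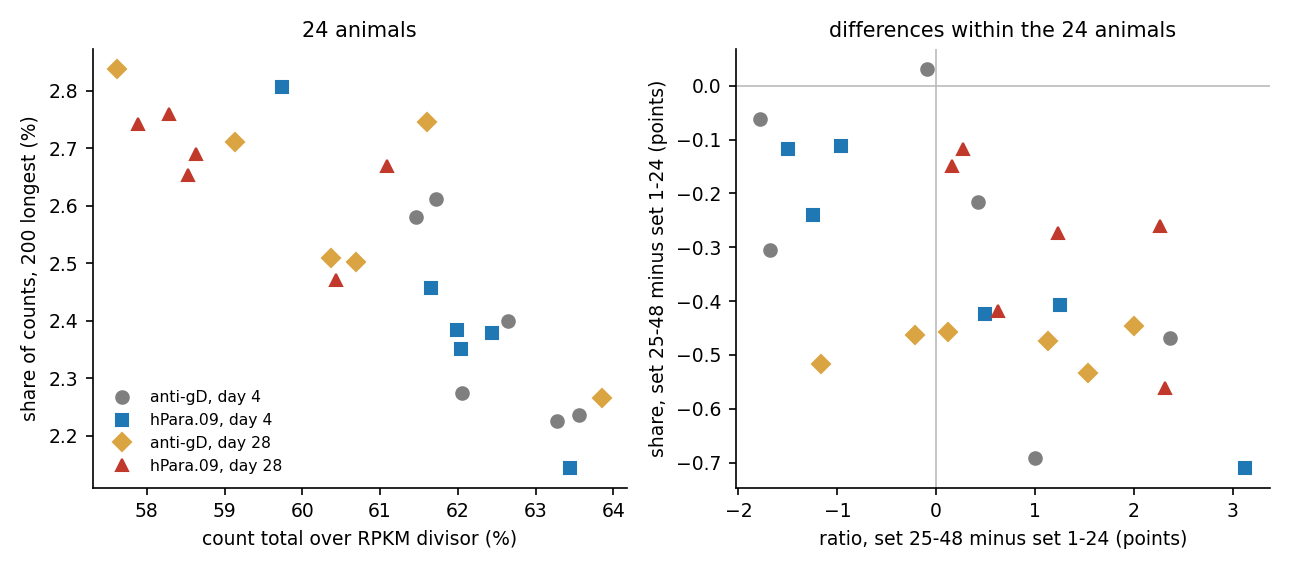
Share of counts of the 200 longest transcripts against the exonic ratio for 24 animals (left; marker, group), and the differences of both measures between the libraries of each animal, higher-numbered minus lower-numbered (right). Shares fall as the ratio rises, with r = -0.855 over animals and r = -0.577 over the differences.

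Single members were tested against the ratio in edgeR with a linear term per percentage point. Between animals, with the group in the model, 0 of 200 passed, where 0.00598% of all genes did. The median log2 change per point was -0.03 for the members and 0.00 for all genes, and 46 estimates were positive (23% against 50.7%). Without adjustment 34 members had a p under 0.05, or 17% against 10.1% of all genes, and 30 of them were negative, or 15% against 4.83%. DESeq2 called 4 members and 0.490% of all genes, and limma voom 0 members and 0% of all genes. The smallest p was that of ENSMFAG00000043062 (16106 bases), at 204.8 to 389.2 CPM over the animals, with a log2 change of -0.10 per point (standard error 0.0209, edgeR adjusted p = 0.138). DESeq2 called it (adjusted p = 0.00325), as did edgeR without animal 5 (adjusted p = 0.0337), and over its alternatives the adjusted p was 0.00325 to 0.411.

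Within animals, with the animal and the library set in the model, 4 members fell with the ratio and 0 rose, where 0.214% of all genes passed. Falls were 2% of the members and 0.208% of all genes, and rises were 0% and 0.00631%. The median log2 change per point was -0.07 for the members and 0.00 for all genes. Of 200 estimates 19 were positive (9.5% against 51.3%). Without adjustment 96 members had a p under 0.05, or 48% against 14.3% of all genes, and all 96 were negative, where 7.95% of all genes were. The 4 were ENSMFAG00000041463, ENSMFAG00000032839, ENSMFAG00000046075 and ENSMFAG00000041968, and the last pair of these was chosen after its values were seen. ENSMFAG00000041463 (11799 bases) stood at 14.96, 44.06 and 68.34 CPM in the libraries numbered 25 to 48 and 23.59, 58.79 and 92.84 CPM in those numbered 1 to 24. Its log2 change was -0.25 per point (standard error 0.0472, edgeR adjusted p = 0.0176). ENSMFAG00000032839 (11440 bases), at 4.66 to 24.89 CPM over the libraries, had a log2 change of -0.25 per point (standard error 0.0459, edgeR adjusted p = 0.0176). The count depended on single animals. It was 0 without animal 2, 4 or 10, 1 without animal 8, and 2 without animal 1, 7, 11, 12, 14, 17, 18, 22 or 23. It was 7, 9, 11 and 12 without animals 16, 5, 6 and 15, and 19 without animals 5 and 16, which hold libraries 29 and 40. Of all genes 0% to 0.821% were called with single animals left out, and 1.91% without animals 5 and 16.

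The position of the members on the whole range of widths was described last, by deciles of the eligible IDs. Between days, the median log2 fold change rose from -0.12 in the shortest decile (59 to 1055 bases) to 0.09 in the longest (6738 bases and more), and the 200 members had 0.14. Of the 770 genes called between days, the shortest decile held 14 higher and 120 lower, and the longest decile 93 higher and 1 lower. Between library sets the medians ran the other way, from 0.12 to -0.09, with -0.17 for the members. Per point of ratio within animals they ran from 0.04 to -0.04, with -0.07 for the members. Between antibodies they moved little at day 4, from -0.02 to -0.02, and at day 28 they went from -0.03 to 0.04. The day, set and within-animal ratio medians moved with width over all eligible IDs, the day median with 1 step against that direction, and the members lay beyond the longest decile in each. Within the members, the 100 widest and the other 100 both had a day median of 0.14.

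**Figure D5:**
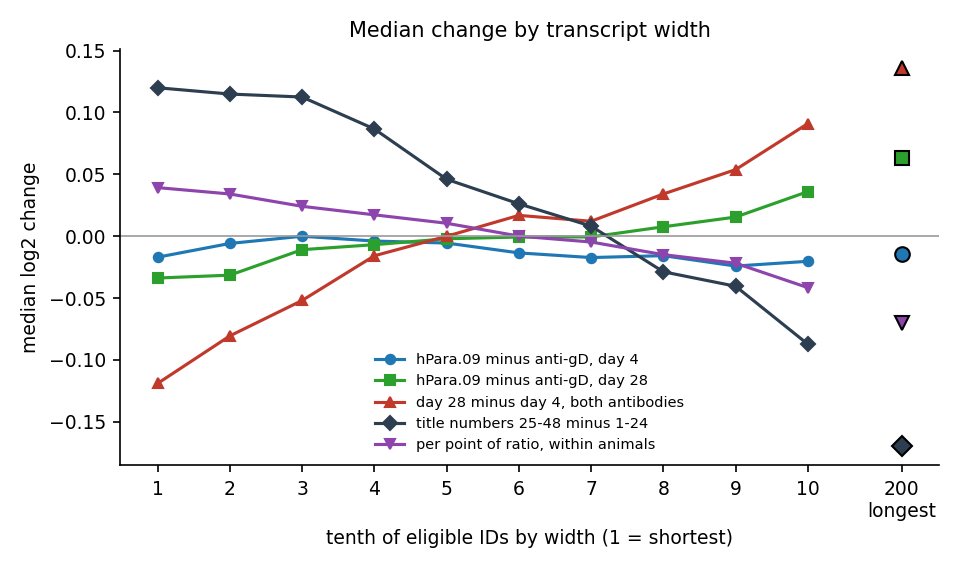
Median log2 change (per percentage point for the ratio) in each decile of the eligible IDs by width, and in the 200 longest (outlined markers at right), for 5 comparisons. The day medians rise from -0.12 to 0.09 and the library set medians fall from 0.12 to -0.09 from the shortest to the longest decile, with 0.14 and -0.17 in the 200 longest.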

How the data were processed

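Each deposited file gives, for 28623 Ensembl gene IDs, a raw read count, a width and an RPKM, per the file headers. The authors' RPKM values equal the count over the width in kilobases and over 1 whole number of reads per library (relative tolerance 1e-09), and this divisor was the only use made of RPKM here. RNA came from column extraction with DNase digestion, per the labels' protocols. GSNAP is named in the submitters' processing notes. Not given in the sources used here are its version, the genome build, the annotation, the use of strand and how reads common to overlapping or near-identical genes were counted, so members with close copies are uncertain.

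All tests used the deposited counts and were fitted on all genes kept by edgeR's default low-count filter, with TMM factors, robust quasi-likelihood dispersions and two-sided p-values adjusted by Benjamini-Hochberg at 0.05 (edgeR 4.0.16, R 4.3.3). Counts of an animal's 2 libraries were summed for the group and between-animal tests, with all 24 animals in 1 model (16721 genes, common biological coefficient of variation 24.3%). The library set and within-animal ratio tests used 48 libraries with the animal as a block (15853 genes, 15.3%). CPM values are TMM-scaled, except those per kilobase, and log2 CPM used a prior count of 2. Standard errors are the log2 fold change over the square root of F. DESeq2 1.42.0, limma 3.58.1, other factors and other member numbers were alternatives. Shares, correlations and variance components came from Python 3.11.15 with pandas 2.3.3, and figures from matplotlib 3.10.9. Counts were also simulated with 200 genes changed. The antibody test at day 4 (16621 genes) recovered 1.49% of 1.25-fold, 35.8% of 1.5-fold and 92.4% of 2-fold changes. The library set test (15756 genes) recovered 86.6% of 1.25-fold changes. The changed genes were drawn from those with a mean count over 50, and all genes of a simulation had the same dispersion. The set test was simulated without differences between animals. Recovery may be lower for members with low counts or more variable levels.

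Members, lists and tests were chosen with earlier results of these data known. Named are the 3 widest members, the 3 highest per kilobase, the 2 largest called changes each way per test, the smallest p where none was called, and the IDs at the width limit. The lists of cell type and pathway genes could not be used, as no ID had a name. P-values of the group and between-animal ratio tests measure the spread between these animals. Those of the library set and within-animal ratio tests measure the spread of the differences between an animal's libraries.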

Additional observations from a re-analysis of the deposited data

Results flagged for a closer look

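A single animal far from the other 5 of its group was looked for in 84 sets of 6 animals. The sets covered the member shares, the exonic ratio and the named members, and 6 were flagged. Chance flags about 1 set in 20, so several of the 84 would be flagged by chance, a number not far from the 6 found. ENSMFAG00000002730 reached 23.15 CPM in animal 21 (hPara.09, day 28), while the remaining 5 animals ranged from 1.348 to 3.33 CPM. In the hPara.09 day 4 group, ENSMFAG00000041674 stood at 6.633 CPM in animal 9 (others 1.259 to 2.781), ENSMFAG00000041387 at 11.56 CPM in animal 10 (others 5.478 to 7.159) and ENSMFAG00000032839 at 19.74 CPM in animal 8 (others 9.999 to 12.02). ENSMFAG00000043753, the third widest member, was at 143.3 CPM in animal 2 (anti-gD, day 4) and at 100.9 to 115.2 CPM in the others. The member share of counts was 2.47% in animal 20 of the hPara.09 day 28 group, below the others at 2.65% to 2.76%.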

How the results depend on the processing

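The antibody contrasts and their interaction gave 0 members under each alternative and with each animal left out (0 to 0). For none of the changes below was the cause tested. With DESeq2 the counts of called members were 1 between days with anti-gD (0 in the fit reported), 19 with hPara.09 (1), 32 over both (16), 4 for the ratio between animals (0) and 21 for the ratio within animals (4). In the same order DESeq2 called 0.293%, 3.24%, 8.80%, 0.490% and 1.46% of all genes. Title numbers 1 to 24 alone gave 19 with hPara.09 and 35 over both, and title numbers 25 to 48 alone gave 0 and 0, as did the exonic ratio as a covariate, 0 and 0. Without libraries 29 and 40 the hPara.09 count was 3, and without their animals the ratio within animals gave 19. With no low-count filter that test gave 2, where 0.0637% of all genes were called. With no replicate block, that is without the animal in the model, it gave 33, and the library set test gave 97 in place of 130, where 6.79% and 43.4% of all genes were called. With the 100 longest IDs the counts were 6 over both days, 69 between sets and 2 for the ratio within animals. With the 400 longest they were 3 with hPara.09, 32 over both and 241 between sets, and the set difference in share was -0.603 points. Correlations of share with ratio were -0.630 over animals without the 30 most abundant IDs in the denominator, and -0.667 over and -0.338 within animals with the RPKM divisor.

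With each animal left out, the counts were 0 to 1 between days with anti-gD, 0 to 9 with hPara.09, 7 to 31 over both, 0 to 1 for the ratio between animals, 121 to 132 between sets and 0 to 12 for the ratio within animals. Of all genes 0% to 0.0178%, 0% to 1.88% and 1.71% to 8.17% were called in the day tests. For the ratio between animals, the sets and the ratio within animals it was 0% to 0.0534%, 56.2% to 59.3% and 0% to 0.821%. Share differences were -0.0454 to 0.0872 and 0.00364 to 0.118 between antibodies at day 4 and 28, 0.158 to 0.273 and 0.189 to 0.322 between days with anti-gD and hPara.09, and -0.366 to -0.334 between sets. Of the 14 estimates for named members that were recomputed under the alternatives, 0 changed sign. They had been picked for a large change or a small p in the same data, so a change of sign was unlikely beforehand. At day 4, 35.8% of simulated 1.5-fold changes were recovered, so smaller changes of single members may be missed. The simulations used the library sizes of the data and did not vary them.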
